A study of Mus musculus with 23 samples.

Results

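Macrophages release growth factors that act on neighbouring cells, and 8 such genes were followed here in bone marrow-derived macrophages (BMDMs) given lipopolysaccharide (LPS): the epidermal growth factor (EGF) family ligands Areg, Ereg and Hbegf, the activin A subunit gene Inhba, and Tgfb1, Pdgfb, Edn1 and Igf1. They were chosen by name, as array probes whose transcript accession maps to the gene, and they make up 8 of the 26014 genes and unmapped accessions tested and 12 of the 55681 probes on the array. LPS raised Areg and Edn1 in all 3 genotypes. Pdgfb was called in wt BMDMs on 1 of its 2 probes, the one kept for its higher wt LPS response, and not on the other or on the mean of both. The other 5 genes were not called in the fit without pairing; with arrays paired by culture, Ereg was called in all 3 genotypes or in the knockouts, depending on how culture was fitted, and Inhba under only 1 of the ways. No difference between genotypes passed the test for any of the 8 genes.

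RNA was measured on 23 one-colour Agilent arrays, 1 per sample. The BMDMs came from bone marrow of wt, MK2-/- or MK2/3-/- male C57BL/6 mice, matured in culture with M-CSF. MK2-/- mice lack Mapkapk2 in the whole animal, and MK2/3-/- mice lack Mapkapk2 and Mapkapk3. Both genes encode protein kinases that p38 MAP kinase activates. Each genotype was kept in culture medium or given 100 ng/ml LPS, a component of the outer membrane of Gram-negative bacteria, for 120 min. Every group had 4 arrays except MK2-/- BMDMs in medium, which had 3. The mice were 10 to 14 weeks old, and a medium and an LPS array of a genotype that share their number and mouse age are taken as 1 culture, which gives 10 cultures. Replicate 3 of MK2-/- medium is taken with LPS replicate 4 as an 11th, from their mouse age alone, since the labels give them different numbers; results that change without this pair are named. All arrays of a genotype lay on 1 slide, so that slide and genotype cannot be told apart. Values below are log2 signals after quantile normalization, so that a difference of 1 is 2-fold, and "called" means an adjusted p under 0.05 in limma's moderated test over all 26014 genes.

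EGF family ligands are made as membrane-bound precursors, and the protease ADAM17 with its partners of the iRhom family cuts them free to bind EGF receptors on nearby epithelium or fibroblasts. Activin A and TGF-β1 signal through receptor kinases to SMAD proteins and act in tissue repair and fibrosis. PDGF-B draws and expands mesenchymal cells, endothelin-1 constricts vessels, and IGF-1 is a growth factor that resident and recruited macrophages produce in regenerating tissue.

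The genes targeted in the knockouts followed the labels. The Mapkapk2 signal was 14.19 to 15.37 in wt BMDMs after LPS, against 11.54 to 12.30 in both knockouts after LPS, and in medium it was 11.49 to 12.64 against 8.57 to 9.07. Mapkapk3 was 10.36 to 12.08 on MK2/3-/- arrays and 13.12 to 14.35 on all others. Of 8 macrophage markers 7 were measured, and these 7 lay well above background on all 23 arrays, with a summed signal of 19.15 to 19.88. Of 5 neutrophil markers measured, 3 were well above background on every wt array, with a summed signal of 11.24 to 12.09 over all groups. Most of that sum was Elane, at 11.18 to 11.93 in wt medium. Camp and Ltf were at 5.36 to 8.11 and Mpo at 2.91 to 5.53 there, and Retnlg was well above background on no wt array. The T cell marker Cd3e was at 9.78 to 10.52 on the wt arrays, where Cd3d was well above background on none. Of the fibroblast and stromal markers, Col1a1, Col1a2, Col3a1 and Cxcl12 varied widely between cultures, with Col1a1 at 9.49 to 14.36 in wt medium. Dcn was at 4.48 to 5.24 there. The summed values are given beside Hbegf and Inhba. Of the dendritic cell markers, Zbtb46 moved with LPS, from 4.43–5.21 to 9.76–10.86 in wt BMDMs, while Flt3 stayed at 5.04–6.01 and 4.99–6.19; the part of such cells in the results was not tested. Of the endothelial markers, Kdr ranged from 5.29 to 7.16 in wt medium and from 6.39 to 9.25 after LPS, Cdh5 from 2.96 to 4.69 and from 3.89 to 5.09, and Tie1 was at most 3.88. Arrays measure RNA of the whole culture, so fewer cells of a type and less RNA per cell cannot be told apart. In 3 arrays the scan stood apart: MK2/3-/- medium replicates 1 and 2 had 47.5% and 69.1% of probes well above background, against 48.5–60.8% elsewhere, and replicate 2 and MK2-/- LPS replicate 1 had no fit of the spatial trend.

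The promoters of Areg and Edn1 are shown because these 2 genes were called in every genotype. Both are the 250 bases before the RefSeq start on the plus strand of GRCm38.p6, at chr5:91139349-91139598 and chr13:42301226-42301475. Capitals in the Areg sequence mark a cAMP response element (CRE, TGACGTCA), at bases −61 to −54 counted back from the start, and a TATA box (TATAAA) at −31 to −26.
Areg: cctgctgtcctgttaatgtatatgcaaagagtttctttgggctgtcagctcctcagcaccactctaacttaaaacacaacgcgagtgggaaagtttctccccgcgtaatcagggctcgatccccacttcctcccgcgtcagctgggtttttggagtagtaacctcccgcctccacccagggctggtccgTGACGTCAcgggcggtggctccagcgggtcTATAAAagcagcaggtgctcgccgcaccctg
Edn1: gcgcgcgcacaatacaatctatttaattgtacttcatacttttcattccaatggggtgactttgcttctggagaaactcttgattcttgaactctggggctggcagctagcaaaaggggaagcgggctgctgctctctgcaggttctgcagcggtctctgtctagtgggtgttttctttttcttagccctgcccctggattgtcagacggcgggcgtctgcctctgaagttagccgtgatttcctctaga
Both strands were searched for these motifs and for the AP-1 motif TGANTCA, for the NF-κB motif and for the SRF-binding CArG box. The core of the element in Areg, TGACG, was also searched alone, and each full element holds it. Areg held a further CRE core at −115 to −111, and the Edn1 window held none of the 6 motifs. Over the 32851 mouse promoters of the same length in the table, 1.55% held the CRE, 17.8% the CRE core, 6.75% AP-1, 12.4% the TATA box, 3.9% the NF-κB motif and 1.47% the CArG box. Of the other 3 members with a promoter in the table, Inhba had a TATA box at −91 to −86, Igf1 had AP-1 at −37 to −31, and Tgfb1 had no match. Hbegf, Ereg and Pdgfb were not in that table. These matches are descriptions of the letters in the window.

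Areg (NM_009704), which encodes amphiregulin, an EGF receptor ligand of epithelial repair, was near the floor of the array in medium and rose in all 3 genotypes. In wt BMDMs its signal was 3.88, 2.09, 1.69 and 2.74 in medium and 6.34, 6.87, 6.71 and 7.96 after LPS. The MK2-/- signal was 1.75 on each of the 3 medium arrays and 5.84, 7.46, 6.45 and 7.28 after LPS. In MK2/3-/- BMDMs it was 1.73, 3.23, 2.80 and 2.14 in medium and 6.08, 6.86, 5.44 and 8.11 after LPS. Every LPS array lay above every medium array, while 2 of the 11 medium arrays, wt replicate 1 and MK2/3-/- replicate 2, were well above background. The latter is 1 of the 3 arrays whose scan stood apart, with 69.1% of all probes well above background. The LPS difference was 4.37 (SE 0.55, 95% confidence interval 3.22 to 5.52) in wt BMDMs, with a limma adjusted p of 8.88e-06. Since 3 of 4 medium arrays were not well above background in wt and in MK2/3-/- BMDMs, the size of these differences is imprecise. The difference was 4.15 in MK2/3-/- BMDMs (adjusted p = 1.11e-05 by limma). In MK2-/- BMDMs, where no medium array was well above background, the rise was called (adjusted p = 4.09e-06 by limma). With each medium value raised to at least the lowest signal that was well above background on its array, it was 15.3-fold. Probes not well above background can lie over that lowest signal, so this fold is approximate and not a strict lower bound. The exact permutation p was 0.0286 in each genotype, the smallest that groups of this size allow. The LPS levels of the 3 genotypes overlapped, with means of 6.97, 6.76 and 6.62 for wt, MK2-/- and MK2/3-/-. With an added offset of 50 on the signals, which compresses low values, the wt difference was 1.53 and was still called.

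**Figure D1:**
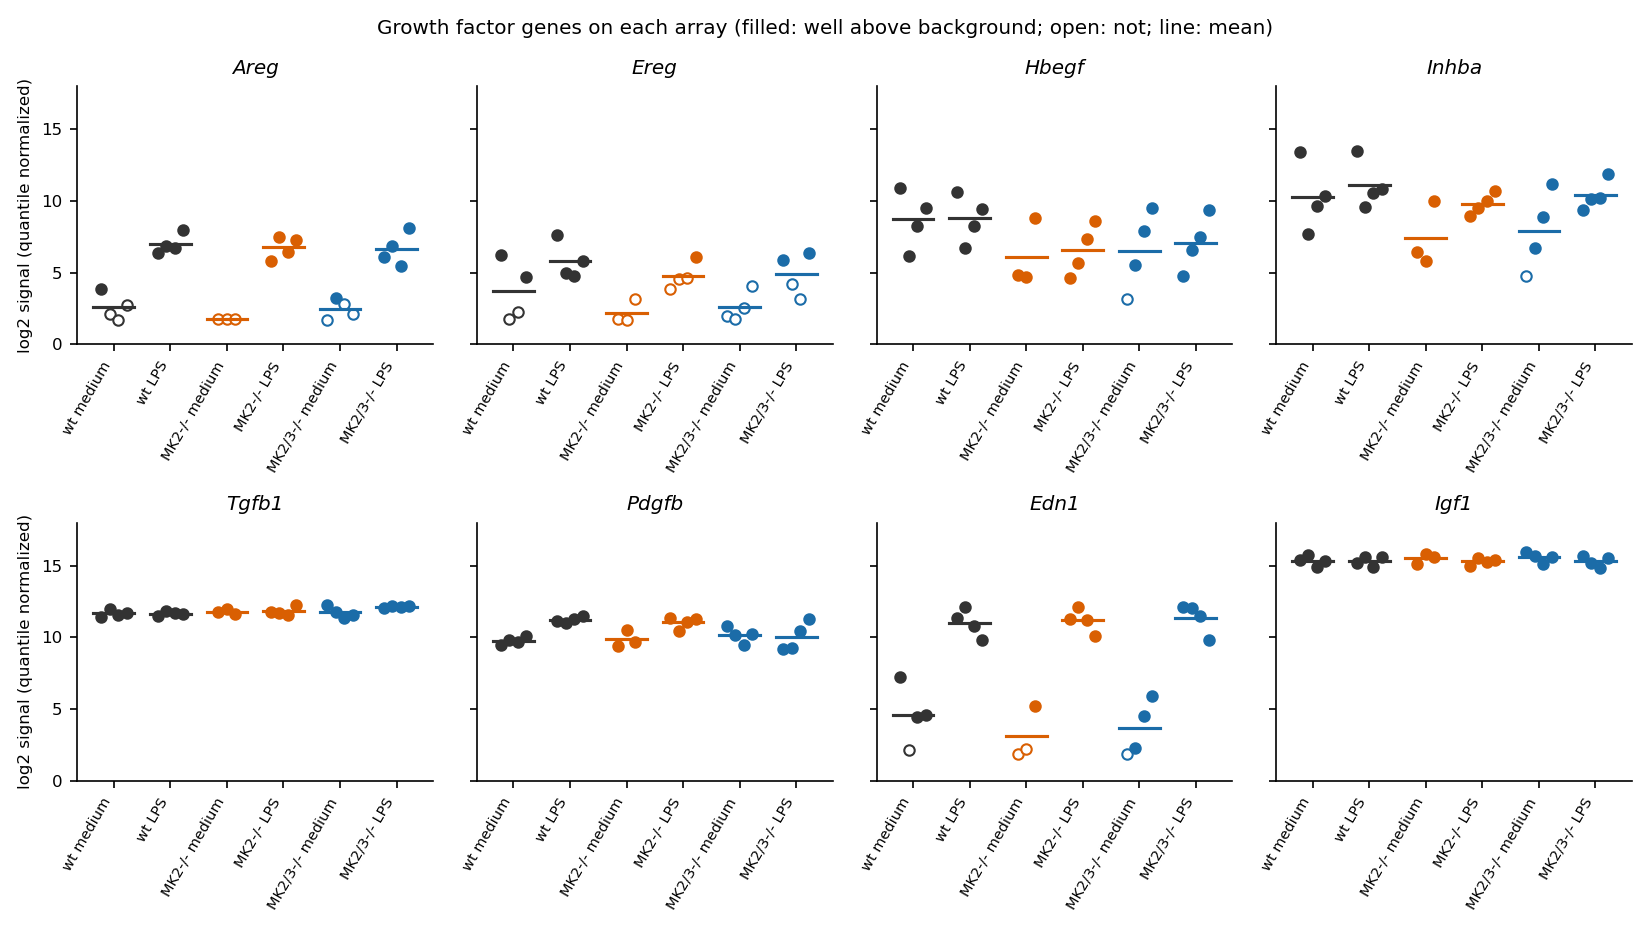
Log2 signal of each of the 8 genes on the 23 arrays, by genotype and treatment; points are arrays (filled where well above background, open where not) and lines are group means. Areg and Edn1 are higher on every LPS array than on every medium array of the same genotype, and Hbegf and Inhba spread widely within each group.

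Ereg (NM_007950) encodes epiregulin, another EGF receptor ligand, and lies next to Areg on chromosome 5. It rose in 11 of 11 cultures, but its arrays spread so widely that the rise was not called. In wt BMDMs the signal was 6.21, 1.75, 2.28 and 4.72 in medium and 7.59, 5.01, 4.77 and 5.79 after LPS. For MK2-/- BMDMs it was 1.74, 1.72 and 3.16 in medium and 3.88, 4.57, 4.61 and 6.08 after LPS, and in MK2/3-/- BMDMs 1.98, 1.80, 2.51 and 4.08 in medium and 5.88, 4.2, 3.19 and 6.34 after LPS. LPS arrays lay above all medium arrays in MK2-/- cells and overlapped them in the other two genotypes. On the wt arrays, Ereg was well above background in 2 of 4 medium and 4 of 4 LPS samples. Of the MK2-/- arrays only LPS replicate 4 was well above background, and of the MK2/3-/- arrays only LPS replicates 1 and 4. The level that counted differed between arrays: 4.77 was well above background on wt LPS replicate 3, while 4.57 and 4.61 on MK2-/- LPS replicates 2 and 3 were not. These counts therefore do not show presence in 1 genotype and absence in another. The LPS difference in wt BMDMs was 2.06 (SE 0.92, adjusted p = 0.152 by limma). In the knockouts it was 2.58 in MK2-/- (adjusted p = 0.0809 by limma) and 2.31 in MK2/3-/- BMDMs (adjusted p = 0.0755 by limma), and no fold is given, since most arrays of both treatments were not well above background. With culture as a random block the limma adjusted p became 0.057 in wt, 0.0265 in MK2-/- and 0.0238 in MK2/3-/- BMDMs, and with culture as a fixed term 0.0124, 0.00705 and 0.00463. Without the pair matched by age alone these were 0.0535, 0.0357 and 0.0222 with the random block and 0.0191, 0.0399 and 0.0078 with the fixed term. Leaving out wt medium replicate 1, the array with the highest Ereg in medium, gave a wt difference of 2.88 with an adjusted p of 0.0321 by limma. Without that array the rise was also called in MK2-/- (0.0492) and MK2/3-/- BMDMs (0.0456), the latter likewise without MK2/3-/- LPS replicate 3 (2.88, adjusted p = 0.036 by limma) or medium replicate 4 (2.81, adjusted p = 0.0462 by limma).

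Hbegf (NM_010415), the heparin-binding EGF-like growth factor, differed more between cultures than between medium and LPS. In wt BMDMs its signal was 10.92, 6.18, 8.25 and 9.52 in medium and 10.62, 6.74, 8.28 and 9.46 after LPS. On the MK2-/- arrays it was 4.84, 4.69 and 8.79 in medium and 4.65, 5.68, 7.35 and 8.61 after LPS. In MK2/3-/- BMDMs it was 3.20, 5.54, 7.93 and 9.49 in medium and 4.78, 6.58, 7.46 and 9.34 after LPS. In wt BMDMs the medium and LPS arrays of a culture lay within 0.55 of each other, while the cultures ranged from 6.18 to 10.92 in medium. In MK2-/- medium, replicates 1 and 2 lay closer to each other than the arrays of culture 2, which differed by 0.99, and MK2/3-/- medium replicate 1 was not well above background. The LPS difference was 0.06 in wt (95% confidence interval −2.88 to 3.00, adjusted p = 0.992 by limma), 0.47 in MK2-/- (adjusted p = 0.908 by limma) and 0.50 in MK2/3-/- BMDMs (adjusted p = 0.862 by limma). Its direction differed between cultures, up in 2 and down in 2 of the wt cultures. With culture as a fixed term the wt difference was 0.06 (SE 0.33), against an SE of 1.4 without it, and it was still not called (adjusted p = 0.942 by limma).

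Inhba (NM_008380) encodes the βA subunit, 2 of which make activin A, a TGF-β family ligand. Its signal was 13.40, 7.72, 9.67 and 10.33 in wt medium and 13.50, 9.56, 10.58 and 10.86 in wt BMDMs after LPS. MK2-/- BMDMs had 6.47, 5.81 and 10.02 in medium and 8.92, 9.52, 9.97 and 10.72 after LPS, and in MK2/3-/- BMDMs 4.77, 6.75, 8.90 and 11.17 in medium and 9.36, 10.11, 10.20 and 11.90 after LPS. The groups overlapped in all 3 genotypes, yet the LPS array was above the medium array in 11 of 11 cultures. Of the medium arrays, MK2/3-/- replicate 1 (4.77) was not well above background, so that the change in that culture is imprecise. The group differences were 0.84 in wt (SE 1.3, adjusted p = 0.78 by limma), 2.35 in MK2-/- (adjusted p = 0.294 by limma) and 2.50 in MK2/3-/- BMDMs (adjusted p = 0.184 by limma). With culture as a fixed term the rise was called in MK2/3-/- BMDMs (adjusted p = 0.0148 by limma) and not in MK2-/- (0.0515) or wt (0.429). With culture as a random block it was called in none (adjusted p = 0.665 in wt, 0.165 in MK2-/- and 0.0823 in MK2/3-/- BMDMs by limma). Without the pair matched by age alone, the fixed term gave 3.09 in MK2-/- BMDMs with an adjusted p of 0.0347 by limma.

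The summed signal of 6 stromal markers (Col1a1, Col1a2, Col3a1, Dcn, Lum and Cxcl12) varied between the same cultures. It was 16.71, 12.15, 14.29 and 15.14 in wt medium and 16.44, 11.95, 14.22 and 15.12 in wt BMDMs after LPS. MK2-/- BMDMs had 11.22, 10.30 and 15.09 in medium and 11.32, 10.54, 12.89 and 14.99 after LPS, and in MK2/3-/- BMDMs 9.09, 10.93, 13.35 and 15.86 in medium and 9.81, 10.88, 13.58 and 15.59 after LPS. The rank of an array within its group was the same for the stromal sum and for Hbegf on 21 of 23 arrays, and likewise for Inhba on 21 of 23, the exceptions lying among the MK2-/- LPS arrays. No stromal marker was called in any comparison, and Lum was well above background on none of the 23 arrays. The sum was taken on the linear scale and is mostly Col1a2 and Col1a1, with means of 14.18 and 12.33 in wt medium. The other markers had means of at most 7.93 there. This order was not limited to Hbegf and Inhba. In medium, Edn1 had it in wt and MK2/3-/- BMDMs, and Ereg in wt and MK2-/- BMDMs. Pdgfb had it on both probes in MK2/3-/- BMDMs after LPS, with 9.22, 9.26, 10.47 and 11.29 on the first probe. In the other groups Pdgfb had another order. Edn1 in MK2-/- medium, Ereg in MK2/3-/- medium, Ereg in all LPS groups and Edn1 in wt BMDMs after LPS had another order. In both knockouts after LPS, Edn1 had exactly the reverse order, with the highest signal on the array with the lowest stromal sum. The part of stromal cells in the values of these genes was not tested.

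**Figure D2:**
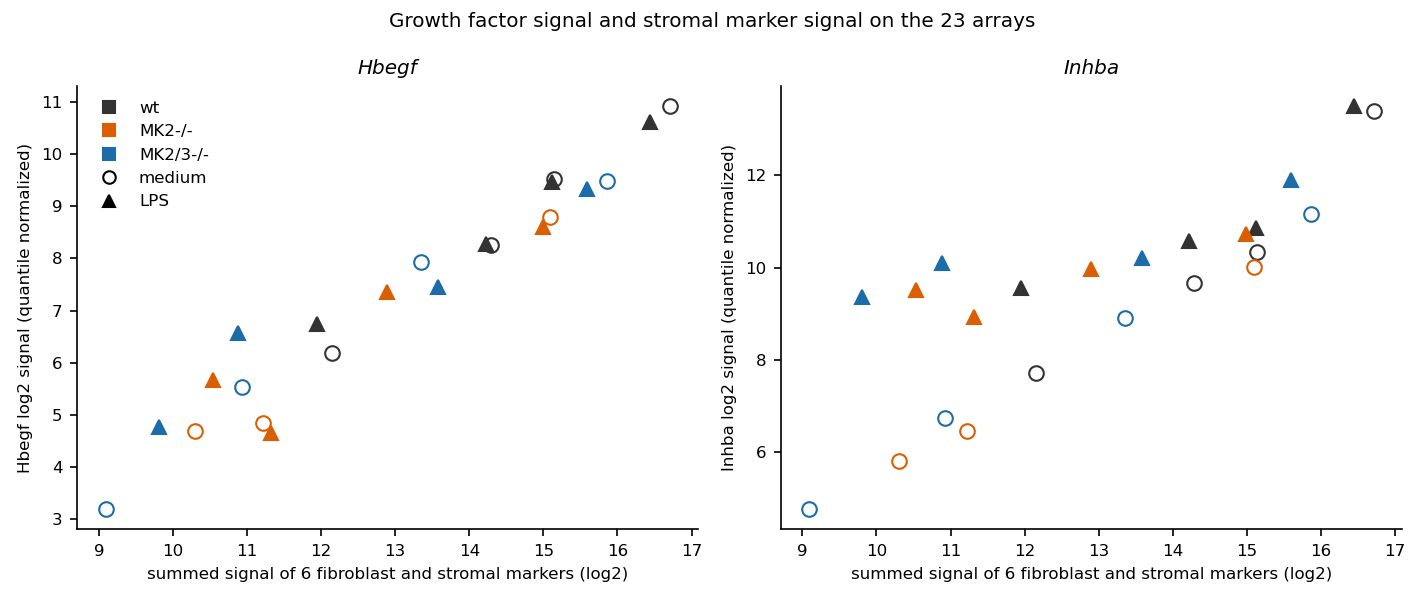
Log2 signal of Hbegf and Inhba against the summed log2 signal of the 6 stromal markers, 1 point per array. Arrays with a low stromal sum, such as MK2/3-/- medium replicate 1 at 9.09, had the low Hbegf and Inhba signals, and wt replicate 1 with 16.71 and 16.44 had the high ones. At a low stromal sum, Inhba lies higher on LPS arrays than on medium arrays.

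Tgfb1 (NM_011577), the ligand TGF-β1, moved little. Its signal was 11.44, 11.95, 11.59 and 11.69 in wt medium and 11.50, 11.81, 11.70 and 11.62 in wt BMDMs after LPS. On the MK2-/- arrays it was 11.76, 11.97 and 11.62 in medium and 11.76, 11.67, 11.53 and 12.26 after LPS, and in MK2/3-/- BMDMs 12.26, 11.77, 11.36 and 11.57 in medium and 12.02, 12.20, 12.11 and 12.20 after LPS. The 4 MK2/3-/- LPS arrays lay above the 4 wt LPS arrays. That genotype difference was 0.48 (SE 0.18, exact permutation p = 0.0286) and was not called (adjusted p = 0.221 by limma). The LPS difference was −0.01 in wt (95% confidence interval −0.39 to 0.36), 0.02 in MK2-/- and 0.39 in MK2/3-/- BMDMs, where the limma adjusted p was 0.124. Without MK2/3-/- medium replicate 1, the highest medium array of its group and one of the arrays that stood apart, the last value was 0.57 and passed (adjusted p = 0.0163 by limma).

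Pdgfb (NM_011057), the B chain of platelet-derived growth factor, was called after LPS in wt BMDMs. Its signal was 9.48, 9.83, 9.66 and 10.08 in wt medium and 11.11, 10.99, 11.25 and 11.50 in wt BMDMs after LPS. In MK2-/- BMDMs it was 9.43, 10.48 and 9.66 in medium and 11.35, 10.46, 11.09 and 11.26 after LPS, and in MK2/3-/- BMDMs 10.78, 10.17, 9.49 and 10.25 in medium and 9.22, 9.26, 10.47 and 11.29 after LPS. The wt groups did not overlap. In MK2-/- cells LPS replicate 2 lay just below medium replicate 2, and in MK2/3-/- cells LPS replicates 1 and 2 lay below all 4 medium arrays. The wt difference was 1.45 (SE 0.38), 2.72-fold, with a limma adjusted p of 0.0112. It was 1.18 in MK2-/- BMDMs (adjusted p = 0.0527, 0.0355 with culture as a random block and 0.141 with it as a fixed term, by limma) and −0.12 in MK2/3-/- BMDMs (adjusted p = 0.884 by limma). The MK2-/- value passed without MK2-/- medium replicate 2 (1.49, adjusted p = 0.0318 by limma) or LPS replicate 2 (1.37, adjusted p = 0.0398 by limma), and without any 1 of MK2/3-/- medium replicates 1 and 3 and LPS replicates 1, 2 and 4, which share its estimate of the spread. Within cultures, LPS changed the signal by 1.63, 1.16, 1.58 and 1.41 in wt, by 1.92, −0.02 and 1.60 in MK2-/-, and by −1.57, −0.92, 0.98 and 1.03 in MK2/3-/- BMDMs. The difference of the LPS response between MK2/3-/- and wt was −1.56 (SE 0.54), which was not called (adjusted p = 0.801 by limma). After LPS, MK2/3-/- BMDMs were at −1.15 relative to wt (adjusted p = 0.158 by limma), and without MK2/3-/- LPS replicate 4 at −1.56 with an adjusted p of 0.0189. The array holds a second Pdgfb probe, on which the wt LPS difference was 1.01 (SE 0.49, adjusted p = 0.194 by limma) and the MK2/3-/- one −0.56, so the wt call rests on the first probe. With the mean of both probes the wt adjusted p was 0.0559 by limma. The first probe had been kept because of its higher wt LPS response, the same contrast as this test. Without the pair matched by age alone the wt adjusted p was 0.0571 with culture as a fixed term, and the MK2-/- value was 0.0508 with the random block, by limma.

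**Figure D3:**
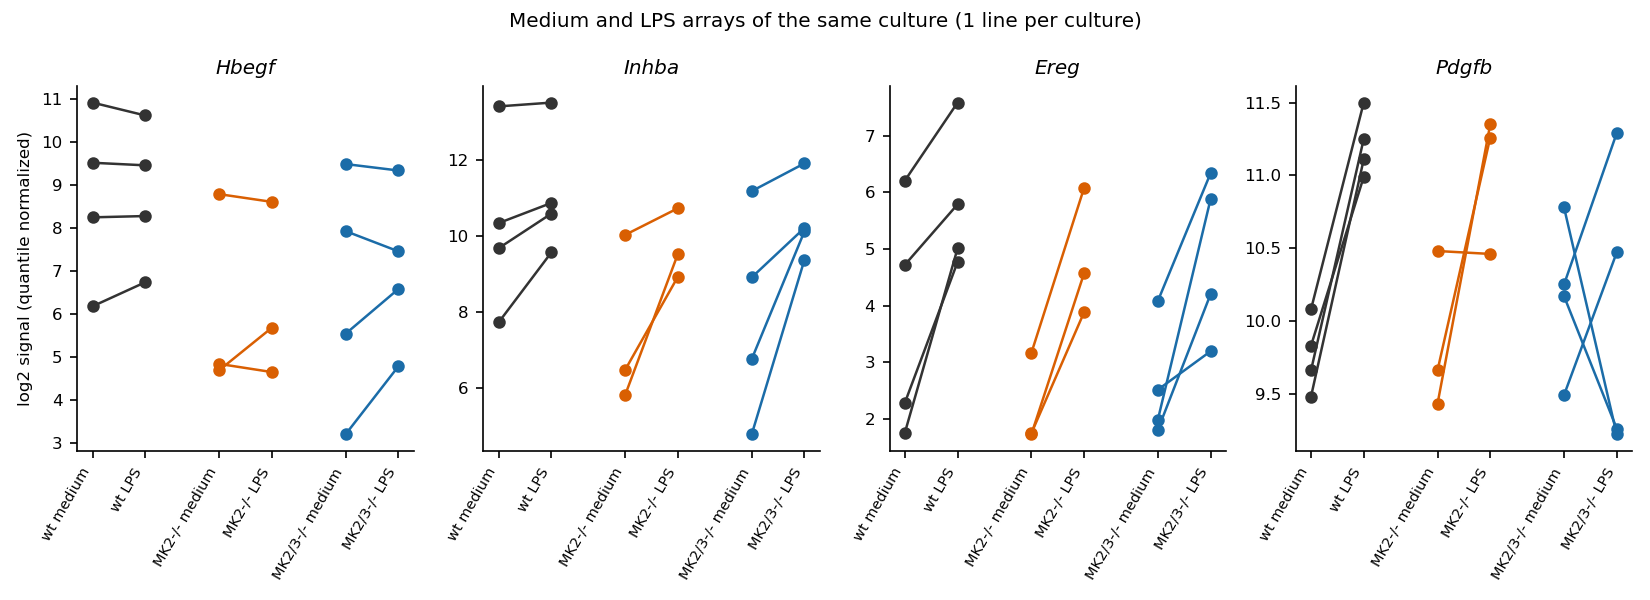
Medium and LPS log2 signals of the same culture joined by a line, for the 11 cultures with both arrays. The 4 panels show Hbegf, Inhba, Ereg and Pdgfb. Ereg and Inhba go up in 11 of 11 cultures, Hbegf changes by −0.47 to 1.59, the latter against a medium array not well above background, and Pdgfb goes up in 4 wt cultures and up in 2 and down in 2 MK2/3-/- cultures.

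Edn1 (NM_010104) encodes the precursor of endothelin-1, a vasoconstrictor that activated macrophages also secrete, and had the largest LPS difference of the 8 genes in each genotype. Its signal was 7.26, 2.19, 4.44 and 4.58 in wt medium and 11.36, 12.13, 10.76 and 9.82 in wt BMDMs after LPS. In MK2-/- BMDMs it was 1.85, 2.26 and 5.24 in medium and 11.25, 12.14, 11.20 and 10.13 after LPS, and in MK2/3-/- BMDMs 1.90, 2.32, 4.55 and 5.90 in medium and 12.10, 12.08, 11.48 and 9.81 after LPS. All LPS arrays lay above all medium arrays, and the spread in medium was wider than that after LPS. The differences were 6.40 (SE 1.02, adjusted p = 0.000127) in wt, 8.06 (SE 1.1, adjusted p = 2.15e-05) in MK2-/- and 7.70 (SE 1.02, adjusted p = 1.05e-05) in MK2/3-/- BMDMs by limma. They correspond to 84.6-fold in wt and 267-fold in MK2-/- BMDMs. Medium arrays not well above background (1 of 4 in wt, 2 of 3 in MK2-/-, 1 of 4 in MK2/3-/-) make these folds imprecise. MK2/3-/- medium replicate 2, at 2.32, counted as well above background on an array whose scan stood apart. Within cultures the rise ran from 4.10 to 9.94 in wt, from 4.89 to 9.88 in MK2-/- and from 3.91 to 10.20 in MK2/3-/- BMDMs. The mean level after LPS was 11.02, 11.18 and 11.37, with overlapping arrays.

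Igf1 (NM_010512), insulin-like growth factor 1, was read by 4 probes. On the probe used its signal was 15.34 ± 0.34 (SD, n = 4) in wt medium and 15.31 ± 0.33 (n = 4) after LPS. It was 15.52 ± 0.35 (n = 3) and 15.29 ± 0.24 (n = 4) in MK2-/- BMDMs and 15.58 ± 0.34 (n = 4) and 15.29 ± 0.39 (n = 4) in MK2/3-/- BMDMs. All 6 groups overlapped. The LPS differences of −0.02, −0.22 and −0.29 were not called, with limma adjusted p values of 0.979, 0.645 and 0.425. The 95% confidence interval of the wt difference was −0.52 to 0.47. The other 3 probes gave LPS differences of −0.06, −0.12 and −0.4 in wt, −0.17, 0.03 and −0.44 in MK2-/- and −0.32, 0.06 and −0.51 in MK2/3-/- BMDMs, and none of the 4 was called in any comparison.

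**Figure D4:**
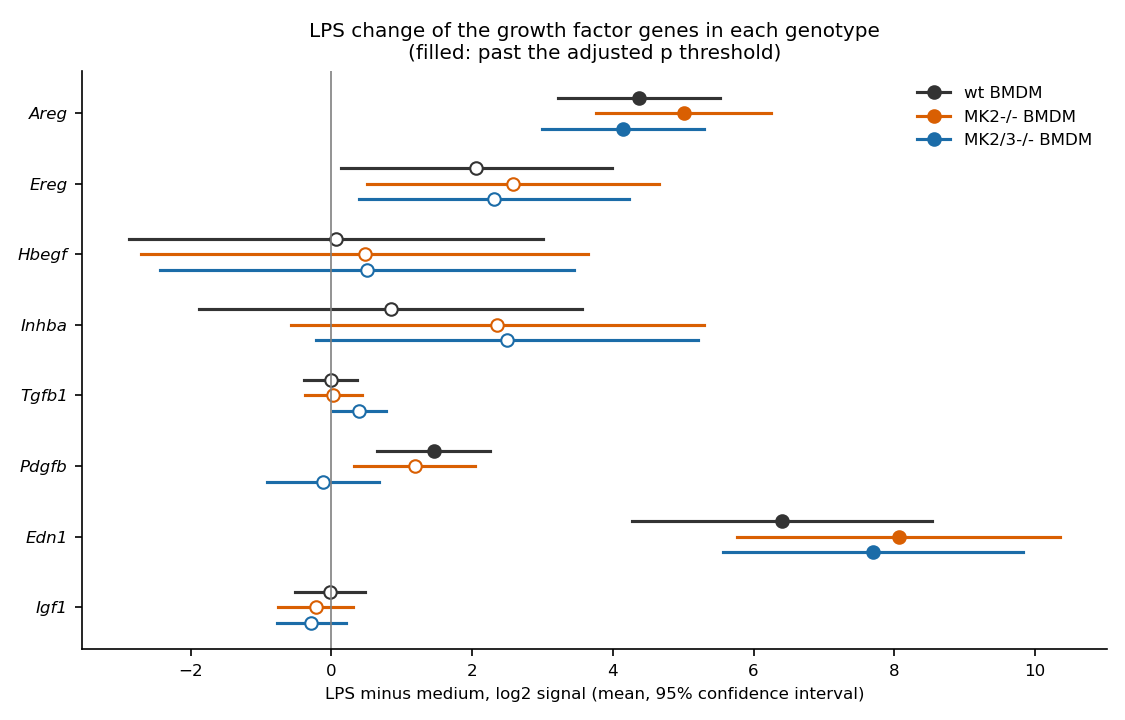
LPS minus medium difference (log2) of the 8 genes in each genotype, with 95% confidence intervals; filled symbols passed limma's test. Areg and Edn1 passed in 3 genotypes and Pdgfb in wt BMDMs. Intervals of the 3 genotypes overlap for every gene, which is not a test of a difference. For Pdgfb the wt interval (0.65 to 2.25) and the MK2/3-/- interval (−0.92 to 0.68) barely overlap. The difference between these 2 responses was −1.56 (95% confidence interval −2.7 to −0.43) and was not called.

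Across the 8 genes, 3 were called after LPS in wt BMDMs and 2 in each knockout, all higher. Over all genes tested, 17.1% were called in wt, 18.6% in MK2-/- and 24.9% in MK2/3-/- BMDMs, and 8.26%, 8.48% and 11.9% were called higher. The median LPS difference of the 8 genes was 1.14, 1.77 and 1.41, against 0.0051, −0.01 and −0.02 over all genes. The 8 genes were chosen with earlier results of these data known, so these counts and medians are not those of an unselected set. After LPS, none of the 8 was called between MK2-/- and wt (0.0308% of all genes were), MK2/3-/- and wt (1.64%), or MK2/3-/- and MK2-/- (0.161%). In medium none was called in the same 3 comparisons, where 0.00769%, 0.0769% and 0.0461% of all genes were. None was called for a difference of the LPS response, where 0.00384%, 0.0115% and 0% of all genes were. At an unadjusted p under 0.05 by limma, 2 of the 8 differed between MK2/3-/- and wt after LPS (Pdgfb and Tgfb1), where 13.6% of all genes did, 1 between MK2/3-/- and MK2-/- (Pdgfb; 7.91% of all genes) and 0 between MK2-/- and wt (7.5%). By that measure 0 differed in medium (3.42%, 4.63% and 3.57% of all genes), and for the LPS response 0, 1 and 1 in the same order as above (1.91%, 4.54% and 2.88% of all genes), both times Pdgfb. On the second Pdgfb probe, the unadjusted p of MK2/3-/- BMDMs after LPS was 0.0921 against wt and 0.188 against MK2-/- by limma. For the LPS response it was 0.0367 against wt and 0.174 against MK2-/- by limma. The intervals are wide for the variable genes: for Inhba in medium, MK2-/- minus wt was −2.85 with a 95% confidence interval of −5.79 to 0.09, and for Hbegf −2.61 with −5.78 to 0.56.

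The pathways of these ligands were followed with 86 further genes in 8 lists, of which 60 cleared the background on all arrays of at least 1 group. After LPS 7 were called higher and 4 lower in wt BMDMs, 8 and 6 in MK2-/- and 15 and 6 in MK2/3-/- BMDMs, while 17.1%, 18.6% and 24.9% of all genes were called in the same comparisons. Of 8 other EGF family ligands, Nrg4 (neuregulin 4) rose and Egf fell in wt BMDMs. With low values raised as for Areg, Nrg4 rose about 6.33-fold (adjusted p = 0.00137 by limma), and Egf fell about 2.59-fold from a dim level (adjusted p = 0.00634 by limma). Of 8 genes of EGF receptors and ligand shedding, Rhbdf2, which encodes the ADAM17 partner iRhom2, and Adam17 itself rose. The Rhbdf2 signal was 10.92 ± 0.22 (SD, n = 4) in wt medium and 13.48 ± 0.45 (n = 4) after LPS, a difference of 2.56 in wt, 2.45 in MK2-/- and 2.48 in MK2/3-/- BMDMs, called in each. Adam17 rose by 1.16, 1.05 and 0.89, with limma adjusted p values of 0.00486, 0.0161 and 0.0204.

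Of 14 genes of activin and TGF-β receptors and SMADs, 2 rose and 3 fell in wt BMDMs. The activin receptor gene Acvr2b fell by 2.07, 2.67 and 2.59 in wt, MK2-/- and MK2/3-/- BMDMs, and its relative Acvr2a, named after its values were seen, rose by 1.48, 1.33 and 1.64. The inhibitory SMAD genes Smad6 and Smad7 fell, by 2.74 and 0.86 in wt, 4.16 and 1.1 in MK2-/- and 4.12 and 1.97 in MK2/3-/- BMDMs. The Smad7 fall passed in 30 of 38 other fits in wt, 36 in MK2-/- and 38 in MK2/3-/- BMDMs. Skil, an antagonist of SMAD signalling, rose by 1.51, 1.27 and 1.69. None of the 14 activin and TGF-β ligands and inhibitors was called in wt BMDMs, and none of 14 IGF pathway genes or 12 other growth factors. In these 3 lists, 1, 0 and 0 were called higher in MK2-/- and 2, 1 and 3 in MK2/3-/- BMDMs, and 0 lower. Of 10 PDGF and VEGF genes only Pgf, placental growth factor, was called in wt BMDMs, up by 2.62 (adjusted p = 9.68e-05 by limma). In that list 1 gene was called higher and 2 lower in MK2-/- BMDMs, and 2 higher and 2 lower in MK2/3-/- BMDMs. Of 6 endothelin genes only Ednrb, a receptor for endothelins, was called. Its signal rose from 3.81 ± 1.16 (SD, n = 4) to 8.68 ± 0.46 (n = 4) in wt, a difference of 4.87, and the difference was 3.86 in MK2-/- and 3.40 in MK2/3-/- BMDMs, so that Edn1 and a receptor gene for its product were both higher after LPS in each genotype.

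Between MK2/3-/- and wt BMDMs after LPS, 3 of the 86 pathway genes were called, against 1.64% of all genes. Pgf was lower by 1.71 (SE 0.41, adjusted p = 0.0386 by limma), with 6.66 ± 0.50 (SD, n = 4) against 8.37 ± 0.77 (n = 4). Smad3, which carries activin and TGF-β signals, was higher by 1.19 (SE 0.29, adjusted p = 0.0476 by limma), with 11.87 ± 0.35 against 10.69 ± 0.49. Smad7 was lower by 1.1 (SE 0.27, adjusted p = 0.0482 by limma), although its arrays overlapped, with 8.26 ± 0.70 against 9.36 ± 0.14. These calls lie close to the threshold: Pgf passed in 25, Smad3 in 14 and Smad7 in 12 of 36 other fits. Without the 3 arrays that stood apart the limma adjusted p values were 0.0669, 0.0777 and 0.0574.

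**Figure D5:**
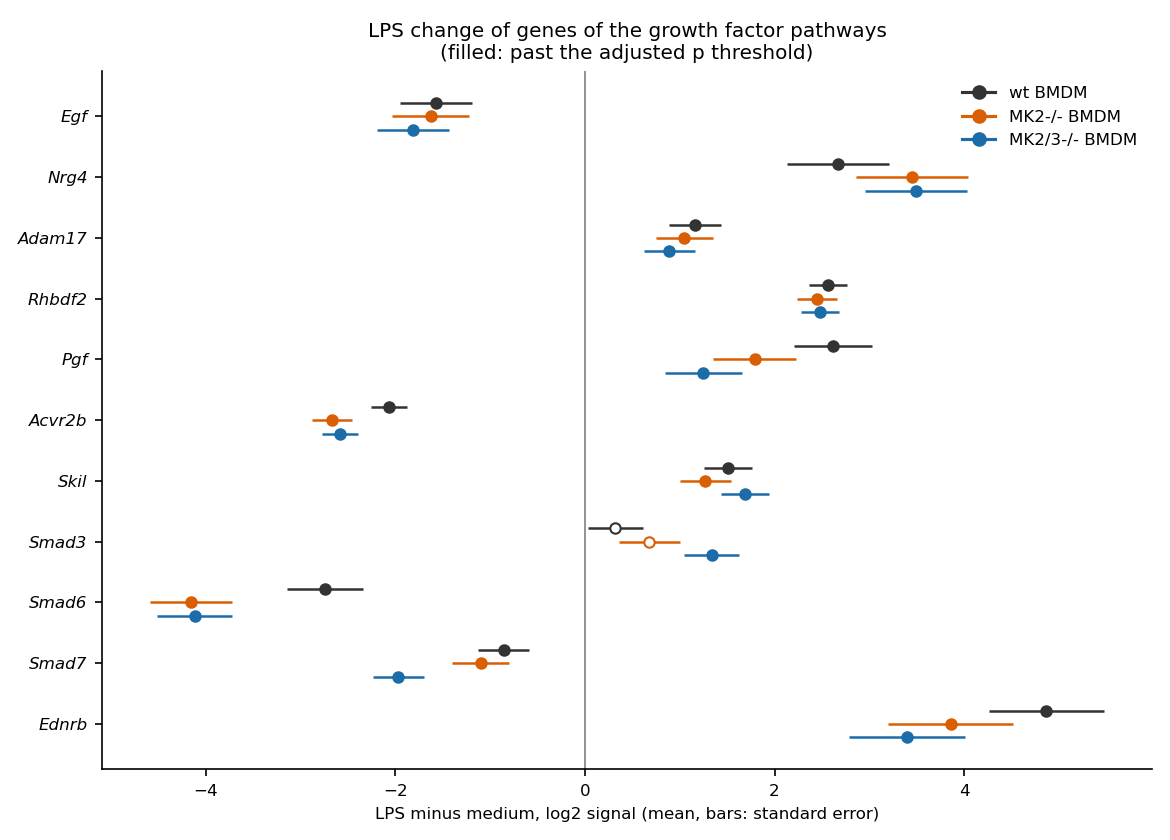
LPS minus medium difference (log2) of the named pathway genes by genotype, with bars of 1 standard error; filled symbols passed limma's test. Ednrb, Nrg4, Rhbdf2, Pgf, Skil and Adam17 lie above 0 and Smad6, Acvr2b, Egf and Smad7 below 0 in all 3 genotypes, and Smad3 passed in MK2/3-/- BMDMs.

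The genes whose signals were most like those of each member were found by Pearson correlation over the 23 arrays, among 13321 named genes well above background in at least 1 group; the arrays share treatment, culture and slide, so the values describe likeness of pattern. Areg was closest to Coq10b and Maff (0.967 each), Edn1 to Adamts4 (0.989) and Ptgs2 (0.988), and Ereg to Fosl1 (0.941) and Htra1 (0.904). Hbegf was closest to Sema7a (0.985) and Ccn2 (0.98), and Inhba to Timp1 (0.989) and Cnn3 (0.977). For Pdgfb the nearest were Dusp4 and Dot1l (0.828 each), for Tgfb1 Srrm2 (0.87) and Wasf2 (0.859), and for Igf1 Sncaip (0.878) and Plxna2 (0.83).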

How the data were processed

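RNA of 23 BMDM samples was hybridised to Agilent 8x60K mouse arrays. The spot intensity deposited by the authors (Feature Extraction software) is linear, background-subtracted and not normalized between arrays; the log2 table deposited by the authors, quantile normalized and set relative to each probe's median, served as an alternative. Here control spots and outlier flags were left out (258 of 1280663 probe values missing, 0 saturated), spots of a probe were averaged, log2 values quantile normalized, and 1 probe per gene kept, chosen as in the study's methods by its LPS response in wt BMDMs (highest). Probe accessions were named through the RefSeq table of GRCm38.p6, which named 27509 of 29150 RefSeq probes. Differences were tested with limma 3.58.1 in R 4.3.3 over 6 groups, two-sided, with Benjamini-Hochberg adjustment over 26014 genes and a threshold of 0.05; single values also had an exact permutation test. The script was tested on simulated data. The members and lists were chosen with earlier results of these data known. Named were the 8 members, pathway genes called between genotypes, the 3 with the largest wt LPS change per list, and the 2 genes most like each member. Arrays were paired by the labels' replicate number and mouse age (10 pairs), and 1 MK2-/- pair by age alone. Deviations from the group means correlated within a culture by 0.359–0.776 over 12576 detected genes (11 pairs) and by 0.0657–0.566 over 25902 genes, with 10 of 11 pairs over 0.1. Samples taken 6 h after LPS were not analysed here. The number of arrays limits the precision.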

Additional observations from a re-analysis of the deposited data

How the results depend on the processing

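With 15 other settings and 23 fits that each left out 1 array, no called difference of the 8 genes changed direction. The other settings were scaling, background correction, a floor, filters, probe choice, the deposited table, the groups in the fit, the methods' t-test and culture blocks; the blocks with culture as a fixed term or without the pair matched by age alone and the omission of the 3 arrays that stood apart were chosen after seeing the data. Areg and Edn1 were called after LPS in every genotype under all of them. The number of genes called after LPS ranged from 2 to 4 in each genotype. With the replicate block (culture as a random block, consensus correlation 0.241) 4 were called in MK2-/- BMDMs, and with culture as a fixed term 4 in MK2/3-/- BMDMs; without the pair matched by age alone the fixed term called 4 in MK2-/- and 4 in MK2/3-/- BMDMs, and the pairing changed no other count by over 1.5 times. Leaving out 1 array gave 3–4 in wt, 2–3 in MK2-/- and 2–3 in MK2/3-/- BMDMs, and 0–1 between MK2/3-/- and wt after LPS, where the 1 was Pdgfb without MK2/3-/- LPS replicate 4; in the other comparisons it gave 0. The methods' t-test had 3, 4 and 3 genes past the unadjusted threshold after LPS, and 3, 2 and 2 after Benjamini-Hochberg. Scaling to the 75th percentile moved the median of all genes by up to 0.2 and brought the Tgfb1 rise in MK2/3-/- BMDMs to 0.61 (adjusted p = 0.0102 by limma). An offset of 50 reduced the Edn1 differences to 4.3, 4.86 and 4.95. The cause of these shifts was not tested. Signals near background, as for Areg, Ereg and Edn1 in medium, limit the folds.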
